A study of Rattus norvegicus with 2 samples.

Results

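Circular RNAs (circRNAs), which form by back-splicing of the end of an exon to the start of the same or an earlier one, were examined for ALDH1A2 and CYP24A1, an enzyme of retinoid metabolism and one of vitamin D metabolism. The members were the circRNAs of the deposited table whose host gene field held only one of these symbols. There were 6 of them among 17260 considered, 4 of ALDH1A2 and 2 of CYP24A1. The genes had been picked because their values stood out between the libraries, so those values are a description and carry no test.

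In the bone_cancer_pain group, Walker256 cells were placed alive in the tibial marrow cavity. Walker256 is a breast carcinoma line of the rat, and the cells had been grown as ascites in SD rats. In the control group, the cells were boiled for 20 minutes and the surgery was otherwise the same. Each group had 3 animals, killed 21 days after surgery, and whether their RNA was pooled is not given in the sources used here. Each group had 1 library, made from RNA cleared of ribosomal RNA and digested with RNase R, which removes linear RNA. The library of the bone_cancer_pain group is called the pain library below, and its reads pain reads. The 2 libraries were compared without replicates, so intervals cover counting error only and no test between conditions could be made.

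ALDH1A2 oxidises retinaldehyde to retinoic acid, the ligand of the nuclear retinoic acid receptors, and in mouse embryos it is a main source of that ligand in the trunk, the spinal cord included. CYP24A1 is a mitochondrial cytochrome P450 that begins the breakdown of active vitamin D, and its gene is a classic target of the vitamin D receptor. Both ligands act through nuclear receptors that pair with retinoid X receptors. Circular junction reads measure neither linear mRNA nor enzyme.

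The pain library held 151685 circular junction reads and the control library 159941. Levels are given as RPM, the reads of a junction scaled to the junction reads of its library, so that 1 read was worth 6.59 RPM in the pain library and 6.25 RPM in the control library. The labels name the source both as ascites-type cancer cells and as spinal cord cells. None of 12 neuronal markers, 1 of 10 oligodendrocyte, 1 of 7 astrocyte, 1 of 10 epithelial carcinoma, 3 of 10 fibroblast and stromal and none of 5 mesothelial markers had a circRNA. The oligodendrocyte one was MBP (3 pain and 2 control reads) and the carcinoma one KRT7 (15 pain and 2 control reads). The astrocyte one was GJA1 (4 pain reads, not listed in the control library). RBFOX3, MOG, GFAP, EPCAM and MSLN had none. No cell type is read from these counts. The table's circRNA identifiers and positions were in the human style, and it names no genome build. The rat genes Aldh1a2 and Cyp24a1 are on chromosomes of other names in RefSeq's rat assembly GRCr8 than the 15 and 20 given in the deposited table. The groups are therefore named by the labels of their libraries, and positions are those of the table.

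ALDH1A2 had 49 junction reads in the pain library and 29 in the control library, and this difference lay on a single junction. The circRNA with the longest distance between its ends was listed in the pain library only, while the other 3 were listed in both, at 5 to 9 reads in the pain library and 8 to 11 in the control library. CYP24A1 had 143 pain and 40 control reads, and nearly all of them lay on 1 circRNA, whose share of junction reads was 4.08 times as high in the pain library (exact 95% interval 2.82 to 6.02). Together both genes held 0.127% of the reads in the pain library and 0.0431% in the control library. In such bulk samples, more cells of a type and more of the RNA per cell cannot be told apart.

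**Figure D1:**
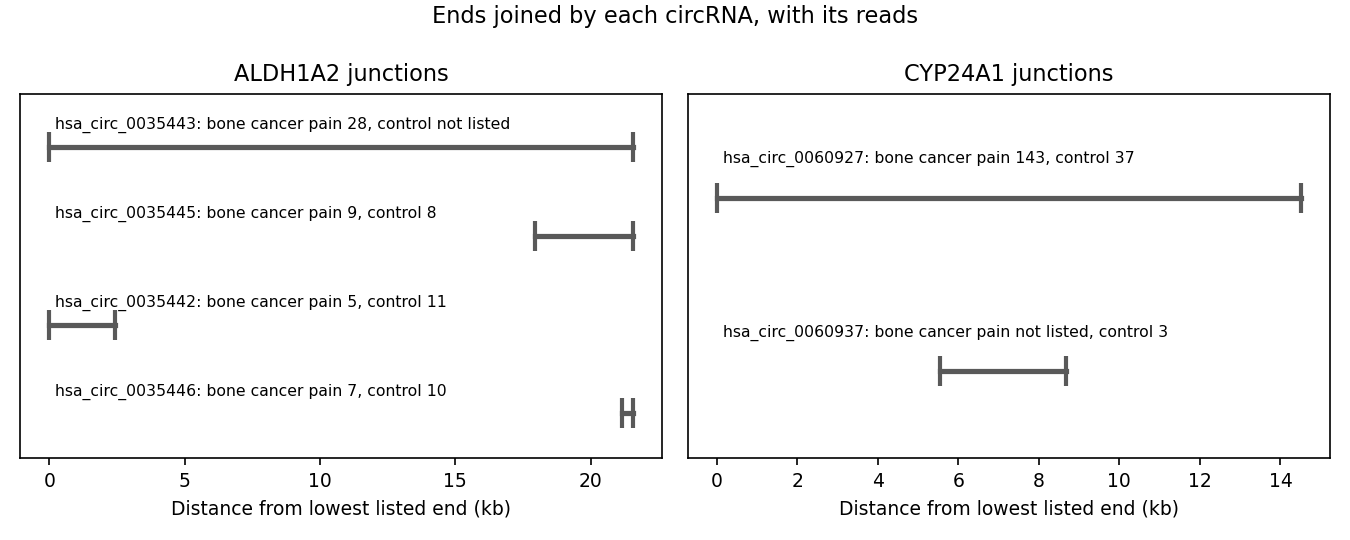
Ends joined by each circRNA of ALDH1A2 and CYP24A1, as distance in kb from the lowest end listed for the gene, with the reads in the bone cancer pain and control libraries beside each. The long ALDH1A2 circRNA (28 reads in bone cancer pain, not listed in control) starts and stops at ends that shorter ALDH1A2 circRNAs use, and the minor CYP24A1 circRNA lies inside the main one.

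The 4 ALDH1A2 circRNAs lay on chromosome 15 between 58284903 and 58306479, a distance of 21576 bases, and used 3 lower and 2 upper ends. All 4 carried a circBase identifier, the mark of a circRNA already catalogued in humans, as did both of CYP24A1. Over all circRNAs 54.0% did, and among the 3079 with 20 or more reads over both libraries 2601 did. The identifiers are thus not read as a trait of these genes. Here the distance is the upper minus the lower position on the genome. No exon annotation was used, so it is not the length of the circle.

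The circRNA hsa_circ_0035443 joined the outermost ends, 58284903 and 58306479. It had 184.6 RPM (28 reads, exact Poisson 95% interval 18.6 to 40.5 reads) in the pain library and was not listed in the control library. The lowest listed value in either library was 2 reads, so 1 control read could have gone unlisted, and no fold is given. It ranked sixth by reads among the 5082 circRNAs listed only in the pain library. Of 3079 circRNAs that had at least 20 reads in all, 14 (0.455%) were listed in the pain library only and 10 (0.325%) in the control library only. Among the 2601 of them with a circBase identifier, 5 (0.192%) were listed in the pain library only. The other 4 were those of SPC24, RGS12 and ANKRD17 and 1 with no host gene, named here after their values were seen. ALDH1A2 was chosen on this contrast, and the 3079 include circRNAs with many more reads, so nothing is read from these shares.

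The other 3 ALDH1A2 circRNAs were listed in both libraries. The circRNA hsa_circ_0035442 joined 58284903 to 58287337, 2434 bases apart at the lower edge of the region. It had 33.0 RPM (5 reads) in the pain library and 68.8 RPM (11 reads) in the control library, a ratio of 0.48 with an interval of 0.13 to 1.5. At the upper edge, hsa_circ_0035445 joined 58302847 to 58306479 over 3632 bases. It had 59.3 RPM (9 reads) in the pain library and 50.02 RPM (8 reads) in the control library (ratio 1.19, 0.41 to 3.53). The shortest, hsa_circ_0035446, joined 58306056 to 58306479, which are 423 bases apart. It had 46.1 RPM (7 reads) in the pain library and 62.5 RPM (10 reads) in the control library (ratio 0.74, 0.24 to 2.15). All 3 intervals include 1, and each also includes a 2-fold difference, which was not detectable at this depth.

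The make-up of the ALDH1A2 reads differed between the libraries. In the pain library, the long circRNA held 57.1% of them (exact binomial interval 42.2 to 71.2), hsa_circ_0035445 18.4%, hsa_circ_0035446 14.3% and hsa_circ_0035442 10.2%. In the control library, hsa_circ_0035442 held 37.9% (20.7 to 57.7), hsa_circ_0035446 34.5% and hsa_circ_0035445 27.6%. Summed over all 4, ALDH1A2 was at 323.0 RPM in the pain library and 181.3 RPM in the control library, a ratio of 1.78 (1.10 to 2.92). Without the long circRNA, the sums were 21 pain and 29 control reads and the ratio was 0.76 (0.41 to 1.39). The sum thus lay on the other side of 1 once that junction was left out, with an interval that includes 1.

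Among 1314 host genes with 20 or more reads in each library, ALDH1A2 was 1 of 3 (0.228%) in which a circRNA listed only in the pain library held 50% or more of the gene's reads there, with PUM2 and ZZZ3. The opposite arrangement, in the control library, was found in 5 (0.381%), among them MYH9, MYO1E, PTMS and SPARC. This description was chosen after the ALDH1A2 values had been seen.

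The ends of the long circRNA were not particular to it. Its upper end, 58306479, was used by 3 of the 4 circRNAs and took 44 reads in the pain library and 18 in the control library. Its lower end, 58284903, was used by 2 and took 33 reads in the pain library and 11 in the control library. In the control library each of these ends was thus read in back-splices to closer partners, while the pairing of the outermost ends was not listed. Of 16488 circRNAs with a single host gene, 17.8% had both ends in use by another circRNA of the same gene.

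**Figure D2:**
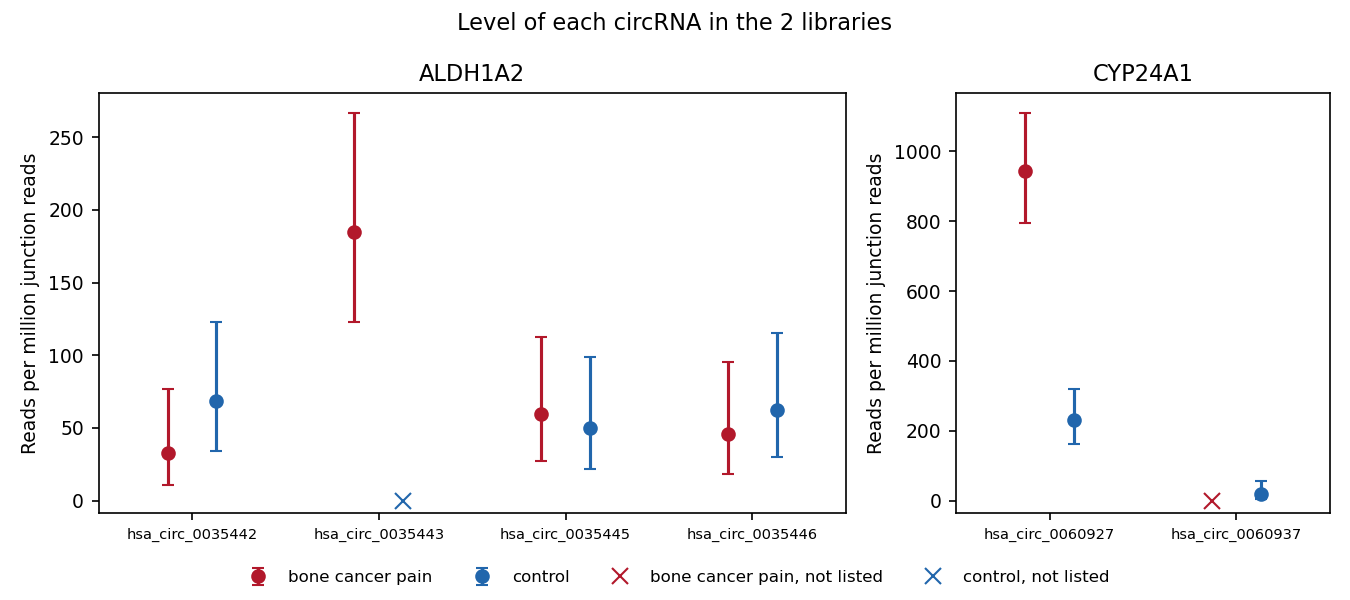
Level of each ALDH1A2 and CYP24A1 circRNA in RPM in the pain library (left of each pair) and the control library (right); points are single libraries, bars are exact Poisson 95% intervals and crosses mark circRNAs not listed. The intervals overlap for 3 ALDH1A2 circRNAs, and those of the main CYP24A1 circRNA, at 942.7 RPM in the pain and 231.3 RPM in the control library, do not.

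CYP24A1 had 2 circRNAs on chromosome 20. The main one, hsa_circ_0060927, joined 52773708 to 52788209 over 14501 bases. It had 942.7 RPM (143 reads, 120.5 to 168.5) in the pain library and 231.3 RPM (37 reads, 26.1 to 51.0) in the control library. It ranked 102nd of all circRNAs in the pain library and 715th in the control library, by reads with no length term, and 200th by reads over both among the 7240 listed in both. The minor one, hsa_circ_0060937, joined 52779256 to 52782372 over 3116 bases, inside the main one and sharing neither end with it. It had 18.8 RPM (3 reads) in the control library and was not listed in the pain library. With fewer than 10 reads it was the 1 member of 6 that did not reach the minimum for a size call.

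The main circRNA held 100% of the CYP24A1 reads in the pain library (97.5 to 100) and 92.5% in the control library (79.6 to 98.4). Over both circRNAs the gene was at 942.7 RPM in the pain library and 250.1 RPM in the control library (ratio 3.77, 2.64 to 5.50). Unlike for ALDH1A2, this difference was carried by a circRNA that both libraries listed. Both cut-offs of the next count are this circRNA's own values, set after they were seen, so nothing is read from its share. Of the 200 circRNAs with at least as many reads over both libraries, 3 (1.5%) had a ratio as high, itself included. The other 2 were those of the cadherin FAT1 (hsa_circ_0001461, 172 pain and 18 control reads, ratio 10.1, 6.19 to 17.4) and of the sodium-calcium exchanger SLC8A1 (hsa_circ_0000994, 183 pain and 47 control reads, ratio 4.11, 2.97 to 5.78).

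**Figure D3:**
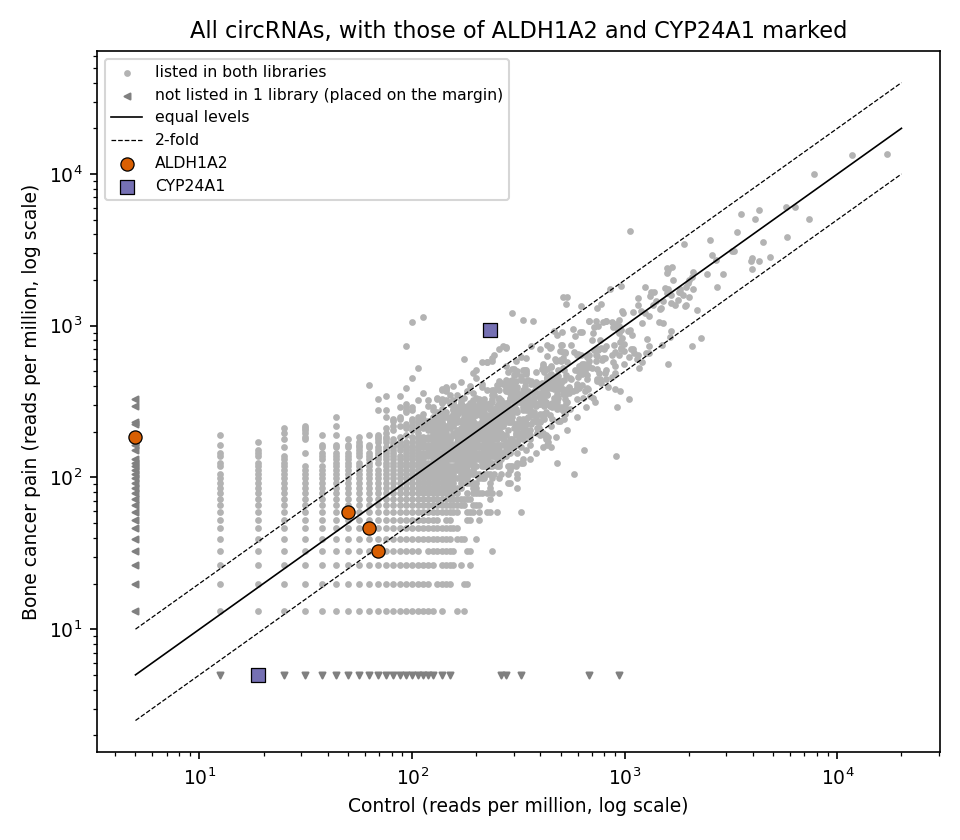
RPM of every circRNA in the pain library (vertical, log scale) against the control library (horizontal, log scale), with circRNAs not listed in 1 library placed on the margin, a solid line for equal levels and dashed lines for 2-fold. The main CYP24A1 circRNA lies above the upper dashed line, 2 ALDH1A2 circRNAs lie between the dashed lines, hsa_circ_0035442 lies just below the lower one at a ratio of 0.48, and the long ALDH1A2 circRNA is on the left margin at 184.6 RPM.

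By a size rule of 2-fold with 0.5 reads added to each library and at least 10 reads over both, 2 of the 5 ALDH1A2 and CYP24A1 circRNAs with enough reads were higher in the pain library and none lower. Over all 5415 circRNAs with 10 or more reads, 17.3% were higher and 17% lower by the same rule. Because the genes were chosen on this contrast, nothing is read from that count. The lowest of the 5, hsa_circ_0035442, was just inside the rule, at a log2 ratio of -0.99 with 0.5 reads added, though its ratio of 0.48 with none added was just past 2-fold. No other circRNA of the table overlapped the span of either gene's junctions.

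The 6 circRNAs had a median of 3374 bases between their ends, against 5764 bases over all circRNAs. The 2 that were higher by the size rule had the longest distances of the 6, longer than 82.5% (ALDH1A2) and 73.6% (CYP24A1) of all circRNAs. The number of circRNAs per gene, 4 and 2, stood beside a median of 2 over 5164 host genes, 28.5% of which had 4 or more.

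Other host genes with a like pair of levels were sought among 3118 with 10 or more reads, by the distance between log2(RPM + 1) values in the 2 libraries. Nearest to ALDH1A2 were the translation factor EIF4B (50 pain and 29 control reads), the exosome subunit EXOSC1 (50 pain and 30 control reads) and AMD1, an enzyme of polyamine synthesis (50 pain and 28 control reads). Nearest to CYP24A1 were the linker histone gene HIST1H1C (162 pain and 38 control reads), the co-chaperone STIP1 (174 pain and 45 control reads) and the Golgi protein GOLPH3 (110 pain and 44 control reads). With 2 libraries, such likeness says only that the 2 levels were close.

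The table held 5164 host genes, but the share of all annotated genes that had a circRNA was not computed. Nothing is therefore read from how many genes of any list had one. Of 82 retinoid and vitamin D pathway genes in 5 lists, 21 (25.6%) had a circRNA and 14 had 10 or more reads. Of those 14, CYP24A1 and the coactivator NCOA1 were 2-fold or more higher in the pain library, the retinol dehydrogenase RDH11 and RAI14 were 2-fold or more lower, and 10 lay between. Over all 3119 host genes with 10 or more reads, 13.7% were higher and 13.9% lower. Without ALDH1A2 and CYP24A1, the lists had 1 of 12 higher, 2 lower and 9 between, and a median log2 ratio of 0.11, against -0.01 over all host genes.

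**Figure D4:**
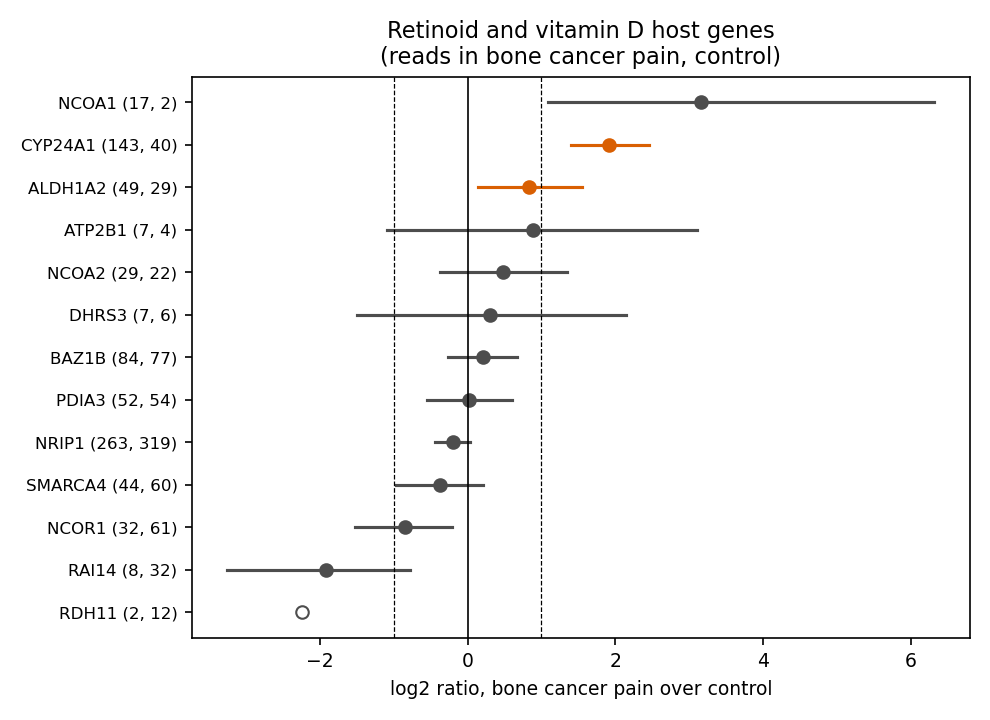
Log2 ratio of the share of junction reads, bone cancer pain over control, for 13 of the retinoid and vitamin D host genes with 10 or more reads, with exact 95% counting intervals; labels give reads in bone cancer pain and control, and dashed lines mark 2-fold. ALDH1A2 and CYP24A1 are in orange, and the open point (RDH11) has no circRNA listed in both libraries and so no interval, its place being the log2 ratio with 0.5 reads added.

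Among 30 enzymes of retinoid synthesis and breakdown, 4 had a circRNA. ALDH1A1 and ALDH1A3, which also make retinoic acid, had none listed. DHRS3, which reduces retinaldehyde to retinol, had 7 reads in the pain library and 6 in the control library (ratio 1.23, 0.35 to 4.43). RDH11, a retinol dehydrogenase, had 2 pain and 12 control reads, with no junction in common and so without a ratio. CYP26B1, which breaks down retinoic acid, had 2 reads in the pain library and was not listed in the control library. None of 11 genes of retinoid binding and transport, such as RBP4 and CRABP2, had a circRNA.

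Receptors gave few reads, and their partners ranged from few, as in NCOA3 (3 pain and 4 control reads), to many. RARA had 2 reads in the pain library and 3 in the control library, RXRA had 2 pain and 5 control reads, and RARB, RARG, RXRB, RXRG and VDR had none listed. The corepressor NCOR1 had 32 pain and 61 control reads (ratio 0.55, 0.35 to 0.86), with 2 of its 9 circRNAs listed in both libraries. The NCOR1 circRNA with the most reads, hsa_circ_0042174, had 25 pain and 39 control reads (0.68, 0.39 to 1.15), an interval that includes 1. The coactivator NCOA1 had 17 pain and 2 control reads (8.96, 2.13 to 79.98), with 1 of its 6 circRNAs listed in both libraries, and NCOA2 had 29 pain and 22 control reads (1.39, 0.77 to 2.54). The corepressor NRIP1, the member of the lists with the most reads, had 263 pain and 319 control reads (0.87, 0.74 to 1.03). RAI14, named for its induction by retinoic acid, had 8 pain and 32 control reads (0.26, 0.10 to 0.58).

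On the vitamin D side, CYP24A1 was 1 of 2 genes with a circRNA among 9 of synthesis, breakdown and transport, and it alone had 10 or more reads. CYP2R1, CYP27A1 and CYP27B1, which activate vitamin D, had no circRNA listed, and CUBN, an uptake receptor, had 2 reads in the pain library and was not listed in the control library. Among receptor partners and targets, the chromatin remodelling subunits BAZ1B (84 pain and 77 control reads, ratio 1.15, 0.83 to 1.59) and SMARCA4 (44 pain and 60 control reads, 0.77, 0.51 to 1.16) had intervals that include 1. So had the disulfide isomerase PDIA3 (52 pain and 54 control reads, 1.02, 0.68 to 1.51) and the calcium pump ATP2B1 (7 pain and 4 control reads, 1.85, 0.47 to 8.60). MED1, the Mediator subunit that binds the vitamin D receptor, had 7 reads in the pain library and was not listed in the control library.

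Close relatives of both enzymes had few reads. Of 18 other aldehyde dehydrogenase genes, 4 had a circRNA, each with 10 or more reads. ALDH7A1, an enzyme of lysine breakdown, had 4 reads in the pain library and 30 in the control library (ratio 0.14, 0.036 to 0.40). This was opposite in direction to the ALDH1A2 sum over all its circRNAs. Without the long circRNA, the ALDH1A2 ratio was also below 1, with an interval that includes 1 (0.76, 0.41 to 1.39). ALDH9A1 had 9 pain and 4 control reads (2.37, 0.66 to 10.5), ALDH2 4 pain and 8 control reads (0.53, 0.12 to 1.97) and ALDH18A1 5 pain and 7 control reads (0.75, 0.19 to 2.76). Of 57 other cytochrome P450 genes, 3 had a circRNA and 1, CYP20A1, had 10 or more reads (9 pain and 6 control reads, ratio 1.58, 0.50 to 5.40).

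Some markers of other cells also differed between the libraries. The fibroblast and stromal list summed to 149 reads in the pain library and 117 in the control library. In it FN1 had 63 pain and 24 control reads (ratio 2.77, 1.71 to 4.63), with 3 of its 15 circRNAs listed in both libraries. COL3A1 had 59 pain and 24 control reads (2.59, 1.59 to 4.36), with 1 of 5 listed in both. SPARC had 27 pain and 69 control reads (0.41, 0.25 to 0.65), with 1 of 3 listed in both. A circRNA listed only in the control library held 50% or more of the SPARC control reads, and the ratio without it was not computed. COL1A1, COL1A2 and DCN had none listed. The epithelial keratin KRT7 had 15 pain and 2 control reads, on different junctions. The part of such cells in the ALDH1A2 and CYP24A1 values was not tested.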

How the data were processed

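The authors deposited 1 table with a column per library, headed TPM, which was treated as RPM made by the authors by scaling junction reads to the library total, per the file headers and values. In each library, 100% of values above the placeholder of 0.001 were multiples of a single step (tolerance 0.01 reads) for every circRNA, so they hold no length term. Reads were obtained as value over step, and the placeholder was read as not listed. The submitters' processing notes name CASAVA 1.8, BWA and build rn6 without roles. The circRNA caller is not given in the sources used here.

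Ratios are bone cancer pain over control shares of junction reads, with exact conditional binomial (Clopper-Pearson) 95% intervals; a host gene whose circRNAs were never listed in both gets no ratio. Levels have exact Poisson intervals. Intervals cover counting error only, since each group had 1 library. PCR duplicates were not separated, so the intervals may be too narrow even for counting error. Size calls needed 10 reads and a ratio of 2 or 0.5 with 0.5 reads added. Rows with several host genes stayed out of host sums; none named ALDH1A2 or CYP24A1. Names of small RNAs were not counted as hosts. Because the identifiers are human, any circRNA on chromosome Y or of an X-inactivation transcript was dropped.

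The members and the 13 gene lists (199 genes, from textbook knowledge) were chosen with earlier results of these data known. Named were both genes with every circRNA, list genes with 10 or more reads, and the 3 nearest host genes for each; list genes with fewer reads or none listed were named for their role. Other settings were median of ratios and TMM scaling (trimming 30% of ratios and 5% of abundances), 2 reads added, minimums of 5 and 20 reads, a ratio of 1.5 and subsets of junctions. The calls were tested on simulated data. Some results that this rule names are not reported here. Software was scipy 1.17.1, numpy 2.4.6 and pandas 2.3.3 under Python 3.11.15, with figures from matplotlib 3.10.9.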

Additional observations from a re-analysis of the deposited data

How the results depend on the processing

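Both gene sums rested on 1 library per condition. The log2 ratio of ALDH1A2, 0.82 over all its circRNAs, was -0.38 without the circRNA with the most reads and -0.38 over circRNAs listed in both libraries, since the same circRNA is left out. The CYP24A1 sum stayed between 1.83 and 2.01 under the settings that gave a value; without its main circRNA no ratio could be formed, since 3 control reads and none listed in the pain library remain. Among the retinoid and vitamin D genes, 2 higher and 2 lower became 1 higher and 1 lower with a minimum of 20 reads, where fewer genes are called, and 5 higher, ALDH1A2 and CYP24A1 included, and 3 lower at a ratio of 1.5, where 23.9% of all host genes were higher and 24.7% lower. Over all circRNAs, 936 higher and 919 lower became 1998 and 1958 with a minimum of 5 reads, 358 and 342 with a minimum of 20, and 1512 and 1526 at a ratio of 1.5, as these settings change how many are counted. Of 35 values under other settings, 24 stayed within counting error or 1.5 times of the first. Median of ratios scaling shifted all log2 ratios by -0.08 and TMM by 0.002. No paired analysis was possible because each group had 1 library.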

Other observations

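Junctions of 1 gene with unlike ratios were also seen among the partners of the nuclear receptors, named here after their values were seen. In BAZ1B, the circRNA hsa_circ_0004670 had 42 reads in the pain library and 25 in the control library (ratio 1.77, 1.05 to 3.03). A shorter circRNA that ends at the same upper position, 72884813 on chromosome 7, hsa_circ_0003866, had 12 pain and 36 control reads (0.35, 0.17 to 0.69). The BAZ1B sum had a ratio of 1.15. In NRIP1, 3 of the 5 circRNAs with 10 or more reads had a larger share in the pain library and 2 a smaller one. At the upper end 16415895 on chromosome 21, which 4 of these 5 use, hsa_circ_0004771 had 208 pain and 276 control reads (0.79, 0.66 to 0.95). A circRNA from 16412684 to that end, with no circBase identifier, had 14 pain and 4 control reads (3.69, 1.16 to 15.4), and one from 16383491 had 21 pain and 15 control reads (1.48, 0.73 to 3.08). There hsa_circ_0001177 had 10 control reads and was not listed in the pain library. No test between conditions was possible for these values.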
